A study of Mus musculus with 2 samples.

Results

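The CCN family of matricellular proteins was followed across cell types of adult mouse skeletal muscle through 5 genes, which were the rows of both count matrices that carry the symbols *Cyr61*, *Ctgf*, *Nov*, *Wisp1* and *Wisp2*. These are the older names of *Ccn1*, *Ccn2*, *Ccn3*, *Ccn4* and *Ccn5*, and all 5 were found once among 28001 features. Cells were tdTomato+ progeny of mesenchymal progenitors, sorted from tibialis anterior muscles that were pooled from 2 hindlimbs and digested with collagenase and Dispase, in *Hic1*CreERT2/CreERT2; *Rosa26*LSLtdTomato/tdTomato mice on C57BL/6J. Both alleles were homozygous in both groups, so Cre was driven from the *Hic1* locus, and only cells using *Hic1* at the time of tamoxifen (TAM), with their progeny, carry the reporter. In the E10-P56 library, dams received 7.5 mg TAM by gavage at E10 and muscle was taken at P56. In the adult pulse library, mice received 5 daily injections of 2.5 mg TAM at 8 weeks, and the labels again give P56 for collection, which leaves no interval after the last dose. The study's own text places this collection later than the labels do, so the age at collection of this library is uncertain. There was 1 library for each labelling time, so all intervals are exact 95% intervals for counting error, and no test between classes or libraries was possible. Library, labelling time, TAM dose and route, and software version cannot be told apart. Per the study's methods, dams of embryos traced to adulthood also received progesterone, and the fetuses were delivered by caesarean section and cross-fostered. These cannot be told apart from the library either.

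CCN proteins are secreted, modular proteins that sit in the extracellular matrix without being part of its scaffold. They bind integrins, LRP receptors and heparan sulphate proteoglycans, and adjust how cells respond to growth factors, stretch and injury. *Cyr61* and *Ctgf* are standard readouts of YAP and TAZ acting through TEAD factors and are also induced rapidly by serum, TGF-beta and mechanical load. *Wisp1* and *Wisp2* were named as genes induced by Wnt1, *Wisp2* encodes the member that lacks the C-terminal cystine knot domain, and *Nov* was named for its overexpression in nephroblastoma.

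In GENCODE M21 on GRCm38, *Cyr61* (ENSMUSG00000028195) lies at chr3:145646976-145649981 on the minus strand and *Ctgf* (ENSMUSG00000019997) at chr10:24595442-24598683 on the plus strand. *Nov* (ENSMUSG00000037362) lies at chr15:54745702-54754039 and *Wisp1* (ENSMUSG00000005124) at chr15:66891320-66923201, both on the plus strand of the same chromosome. *Wisp2* (ENSMUSG00000027656) lies at chr2:163820861-163833146 on the plus strand. The *Cyr61* promoter is shown because *Cyr61*, a TEAD readout, was the member with an entry in the RefSeq promoter table. The 250 bases before the RefSeq start site (GRCm38.p6, chr3:145649986-145650235, minus strand, written 5′ to 3′ along the gene) hold a single CATTCC, the core letters bound by TEAD factors, given here in capitals.
Cyr61 promoter: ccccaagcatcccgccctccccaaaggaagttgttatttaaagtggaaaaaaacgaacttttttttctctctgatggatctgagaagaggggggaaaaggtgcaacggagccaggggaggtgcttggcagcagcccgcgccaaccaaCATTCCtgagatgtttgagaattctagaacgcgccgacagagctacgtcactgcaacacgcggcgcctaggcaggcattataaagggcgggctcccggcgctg
The CATTCC began 103 bases before the start site, and the same letters on either strand were present in 12.6% of 32851 RefSeq promoter windows. TATAAA began 25 bases before the start and was found in 12.4% of windows. TGACG, the core of cyclic AMP response elements, began 58 bases before the start on the opposite strand and was found in 17.8% of windows, whereas TGANTCA, the AP-1 site, had no match here and was found in 6.75%. None of the 3 matches overlapped another. *Ctgf*, *Nov*, *Wisp1* and *Wisp2* had no entry in the promoter table.

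After removal of cells under 1500 UMIs or over 10% mitochondrial UMIs, 6087 E10-P56 cells (median 7648 UMIs) and 8567 adult pulse cells (median 7344 UMIs) remained. Cells were placed by the number of markers of each type with a UMI, and no member was a marker. The gate found 468 pericytes in E10-P56 cells and 399 in adult pulse cells, 177 and 18 vascular smooth muscle cells (VSMCs), 177 and 77 mural cells between these, 229 and 533 tenocytes, 152 and 36 perineurial cells, 93 and 12 Schwann cells, 13 and 46 endothelial cells, and 4161 and 6880 fibroblasts, while 95 and 22 cycling cells were set aside. The mitochondrial limit fell mainly on VSMCs of E10-P56, of which there were 581 with no limit and 40 at a limit of 5%. Fibroblasts of E10-P56 numbered 4362 and 3523 under these settings. The VSMC values of E10-P56 therefore describe the smaller part of the class, with low mitochondrial shares. Endoneurial cells, fibroblasts with at least 3 of *Sox9*, *Osr2*, *Wif1*, *Etv1*, *Trf* and *Shisa3*, numbered 76 and 221. Of these, 63 and 185 stood exactly at the limit of 3 markers, 344 and 889 fibroblasts had 1 marker fewer, and no cluster of cells took this name. The gate therefore did not set the endoneurial class clearly apart from fibroblasts. Clusters were named from median marker counts at 1 resolution, so whether the class holds a separate population was not tested. Pericyte and VSMC markers form a gradient, and 157 of 822 mural cells in E10-P56 cells and 72 of 494 in adult pulse cells lay within 0.5 of a limit on it. The 8 immune markers summed to at most 7.44 CPM (UMIs per 1000000 UMIs of a class) in every class, and 15 cell barcodes occurred in both libraries. When both libraries were clustered together, 1 library made up 90% or more of 13 of the 19 fibroblast clusters.

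*Cyr61*, which encodes an integrin-binding protein that promotes adhesion and migration, was highest in tenocytes, followed by the contractile side of the mural gradient. Its level in tenocytes was 1529 CPM (1459 to 1600) in E10-P56 cells and 1429 CPM (1392 to 1468) in adult pulse cells. Intermediate mural cells had 589.8 CPM (554 to 627) and 859 CPM (772 to 953), and VSMCs had 459.5 CPM (426 to 495) in E10-P56. In the 18 adult pulse VSMCs the level was 1362 CPM (1172 to 1574), which overlapped the tenocyte interval of that library. Fibroblasts stood at almost the same level in both libraries, with 330.0 CPM (325 to 335) and 335 CPM (330.1 to 339.6). Endoneurial cells, at 292 CPM (262 to 325) and 331 CPM (307 to 355), overlapped the fibroblasts. Pericytes were lower, at 228 CPM (208 to 250) and 169 CPM (148 to 192), and overlapped perineurial cells, at 188 CPM (159 to 220) and 191 CPM (134 to 265). Schwann cells of E10-P56 had the lowest level, 95.6 CPM (71.6 to 125).

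With every cell thinned to 1500 UMIs, a *Cyr61* UMI was found in 59.8% of E10-P56 tenocytes (53.2% to 66.2%) and in 58.5% of adult pulse tenocytes (54.2% to 62.8%), against 24.7% and 24.4% of fibroblasts. Without thinning the shares were 76.9% and 78.4% of tenocytes and 50.6% and 47.1% of fibroblasts. No class can be assumed to lack *Cyr61*. Among classes of at least 20 cells, the lowest thinned share was 8.6% of E10-P56 Schwann cells, with a median depth of 5246 UMIs beside 4565 UMIs for tenocytes and 8712 UMIs for fibroblasts.

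*Ctgf*, the matrix-promoting member best known from fibrosis and tendon, had its highest level in tenocytes in both libraries. Tenocytes had 844.5 CPM (793 to 898) in E10-P56 cells and 1367 CPM (1330 to 1405) in adult pulse cells, and these intervals did not overlap. VSMCs had 388.5 CPM (358 to 421) in E10-P56 and 387 CPM (289 to 507) among the 18 cells of the adult pulse. Intermediate mural cells had 377.4 CPM and 192 CPM (152 to 239). The E10-P56 value rests partly on 1 cell with 190 of the 652 UMIs, and without that cell it was 271 CPM. Fibroblasts had 113.5 CPM (110.4 to 116.7) and 156 CPM (153 to 159), and pericytes 70.5 CPM (59.5 to 83) and 85.7 CPM (71.1 to 102.5). Perineurial cells at 75.9 CPM (58.1 to 97.5) and 127.5 CPM (81.7 to 190), and endoneurial cells at 74.6 CPM (59.6 to 92.2) and 140.2 CPM (125.2 to 156.6), overlapped each other in both libraries. In the adult pulse 1 perineurial cell gave 14 of the 24 UMIs. Schwann cells of E10-P56 had 32.5 CPM (19.3 to 51.3), and 9.2 CPM without the 1 cell that gave 13 of the 18 UMIs. The 46 endothelial cells of the adult pulse had 20.1 CPM (4.2 to 58.8) from 3 UMIs. These were the lowest levels among classes of at least 20 cells. The thinned share with a *Ctgf* UMI was 45.9% (39.3% to 52.5%) and 52.5% (48.2% to 56.8%) of tenocytes, 8.1% and 13.3% of fibroblasts, and 2.2% of E10-P56 Schwann cells. The 10% of fibroblasts with the most *Ctgf* UMIs held 90.3% of them in E10-P56 cells and 75.8% in adult pulse cells. Without thinning, 20.7% and 31.7% of fibroblasts had a *Ctgf* UMI, and the part of this scarcity in those shares was not tested.

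*Wisp1*, a proliferation-associated member expressed in bone and repair tissue, had its highest level among the placed classes in tenocytes in both libraries. Tenocytes had 164 CPM (142 to 188) in E10-P56 cells and 180 CPM (166 to 194) in adult pulse cells, with overlapping intervals, and 21% (15.9% to 26.8%) and 19.9% (16.6% to 23.5%) of them had a *Wisp1* UMI after thinning. Fibroblasts had 17.2 CPM (16.0 to 18.5) from 775 UMIs in E10-P56 but 2.19 CPM (1.8 to 2.6) from 124 UMIs in the adult pulse. The cycling cells of E10-P56, with a median depth of 34892 UMIs, had 162 CPM (149 to 176), which overlapped the tenocytes. Of all *Wisp1* UMIs in E10-P56, 43.5% were in fibroblasts, 32.6% in cycling cells and 11.0% in tenocytes, whereas tenocytes held 73.5% in the adult pulse. VSMCs of E10-P56 had 19.7 CPM (13.3 to 28.2), which overlapped the fibroblasts of that library, most of whose *Wisp1* UMIs lay in the activated cells described below. Pericytes of the adult pulse had no *Wisp1* UMI, which allows up to 2.6 CPM, and those of E10-P56 had 2.9 CPM (1.1 to 6.4). The thinned share in pericytes of E10-P56 was 0.2%, at a median depth of 3433 UMIs, and serves as the background for the tenocyte shares.

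*Nov*, which interacts with Notch1 and integrins, was high in fibroblasts and endoneurial cells of both libraries and in Schwann cells of E10-P56, and low in pericytes and perineurial cells. Fibroblasts had 133 CPM (130 to 137) in E10-P56 cells and 176 CPM (172 to 179) in adult pulse cells. Endoneurial cells had 211 CPM (185 to 239) and 175 CPM (159 to 194), above the fibroblasts in E10-P56 cells and overlapping them in adult pulse cells. Schwann cells of E10-P56 had 159 CPM (127 to 196), which overlapped the endoneurial cells. In VSMCs the level was 107 CPM (91.3 to 125) in E10-P56, with 95.1% of the UMIs in 10% of the cells. Tenocytes had 108 CPM (89.97 to 128) and 44.0 CPM (37.6 to 51.2), and 96.9% and 100% of these UMIs were in 10% of the cells. Without thinning, only 14.7% of these VSMCs and 11.8% and 9.0% of tenocytes had a *Nov* UMI. Such scarcity by itself puts most UMIs in 10% of the cells. Pericytes had 4.9 CPM (2.3 to 8.9) and 12.9 CPM (7.6 to 20.3), and perineurial cells 21.1 CPM (12.3 to 33.9) and 5.3 CPM (0.1 to 29.6). After thinning, 14.9% (13.9% to 16.0%) and 17.3% (16.4% to 18.2%) of fibroblasts had a *Nov* UMI against 0.9% and 1.8% of pericytes, and 20.4% (12.8% to 30.1%) of Schwann cells in E10-P56.

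*Wisp2*, a regulator of fibroblast and adipose precursor state, was found in fibroblasts, endoneurial cells and tenocytes and was near 0 in pericytes. Fibroblasts had 104 CPM (101 to 107) in E10-P56 cells and 33.1 CPM (31.6 to 34.7) in adult pulse cells. Endoneurial cells had 131 CPM (111 to 153) and 30.3 CPM (23.5 to 38.4). Tenocytes had 25.9 CPM (17.6 to 36.8) and 31.4 CPM (26.0 to 37.5), so in the adult pulse fibroblasts, endoneurial cells and tenocytes could not be ordered. VSMCs of E10-P56 had 24.3 CPM, of which 1 cell gave 20 of 37 UMIs, and 11.3 CPM without it. Pericytes, intermediate mural cells, perineurial cells and E10-P56 Schwann cells had between 1.7 and 10.6 CPM, from 1 to 7 UMIs each. A *Wisp2* UMI was found after thinning in 8.7% (7.9% to 9.6%) and 3.8% (3.4% to 4.3%) of fibroblasts, against 0.6% and 0.3% of pericytes.

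**Figure D1:**
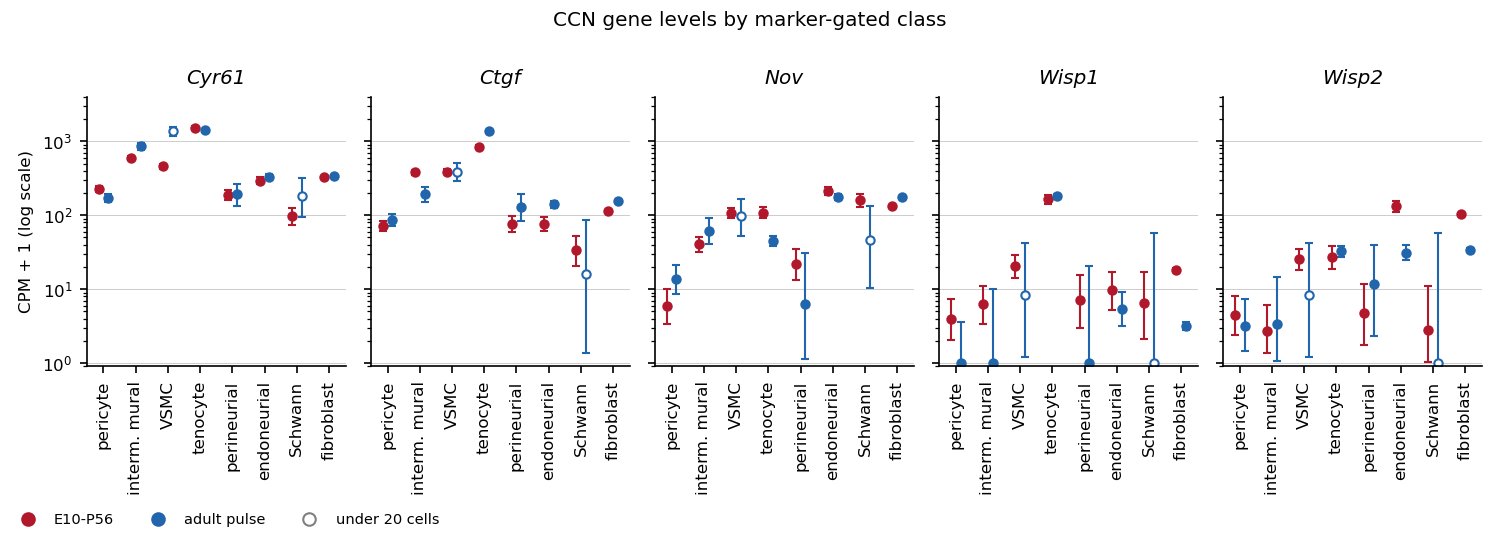
Level of each CCN gene in each marker-gated class, as CPM + 1 on a log scale, in the E10-P56 library (red) and the adult pulse library (blue). Points are UMIs summed over the cells of a class and bars are exact 95% Poisson intervals; open points are classes with under 20 cells. *Cyr61*, *Ctgf* and *Wisp1* have their highest filled points in tenocytes in both libraries, and *Nov* and *Wisp2* are low in pericytes.

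Each member was set against fibroblasts of the same library in 12 comparisons, which leave out endothelial cells and classes of under 20 cells, and of which 56 of 60 member values passed a filter of 10 CPM on average and 20 UMIs in all. The 4 that did not were *Wisp1* in adult pulse classes. Of the 56, 9 were at least 2-fold higher than fibroblasts and 22 at least 2-fold lower. A member that passed through its level in fibroblasts alone, or in tenocytes alone, had to differ, so these counts are read only beside those for all genes. In tenocytes 3 of 5 members were at least 2-fold higher in each library, where 9.9% of all genes tested were so in E10-P56 cells and 6.75% in adult pulse cells. *Cyr61* was 4.63-fold higher (4.41 to 4.86) in E10-P56 cells and 4.27-fold higher (4.14 to 4.40) in adult pulse cells. *Ctgf* was 7.44-fold higher (6.95 to 7.96) and 8.77-fold higher (8.48 to 9.08), and *Wisp1* was 9.51-fold higher (8.09 to 11.1) and 82.05-fold higher (67.7 to 100.2). Over all classes the shares were counted among 8302 to 8952 genes. The members at least 2-fold lower in tenocytes were *Wisp2* in E10-P56, with a ratio of 0.25 (0.17 to 0.36), where 8.47% of genes were so, and *Nov* in the adult pulse, with a ratio of 0.25 (0.21 to 0.29), where 10.1% were. *Nov* in tenocytes of E10-P56 had a ratio of 0.81 (0.67 to 0.96), which was 0.32 with cells named from clusters.

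In pericytes no member was 2-fold higher than in fibroblasts, where 16.5% and 17.6% of genes were. *Nov* and *Wisp2* were at least 2-fold lower in both libraries and *Wisp1* in E10-P56, where 10.7% and 11.8% of genes were. *Nov* had ratios of 0.04 (0.02 to 0.07) and 0.07 (0.04 to 0.12), and *Wisp2* of 0.03 (0.01 to 0.07) and 0.06 (0.01 to 0.19). *Cyr61* ratios of 0.69 (0.63 to 0.76) and 0.51 (0.44 to 0.57) stayed within 2-fold, but with cells named from clusters they were 0.31 and 0.36. In intermediate mural cells *Ctgf* was 3.32-fold higher (3.06 to 3.61) in E10-P56, where 10.9% of genes were past 2-fold, and 1.23-fold higher (0.97 to 1.54) in the adult pulse. *Cyr61* was the member past 2-fold there in the adult pulse, at 2.57-fold (2.30 to 2.85), where 15.5% of genes were so, and it stood at 1.79-fold (1.68 to 1.90) in E10-P56. In the same cells *Nov* and *Wisp2* in both libraries and *Wisp1* in E10-P56 were at least 2-fold lower, where 9.91% and 11.5% of genes were. In VSMCs of E10-P56 *Ctgf* was 3.42-fold higher (3.14 to 3.73), where 14.7% of genes were past 2-fold, and *Wisp2* was lower with a ratio of 0.23 (0.17 to 0.32), where 16.1% were.

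In perineurial cells, the sheath cells around nerve fascicles, *Nov* and *Wisp2* were at least 2-fold lower in both libraries and *Wisp1* in E10-P56, where 9.3% and 12.5% of genes were, and no member was 2-fold higher, where 16% and 18.5% were. The adult pulse ratios rest on few UMIs. *Nov* had 0.03 (0.0008 to 0.17) from 1 UMI, and *Wisp2* had 0.32 (0.04 to 1.16) from 2 UMIs in 1 cell, so for *Wisp2* the interval includes 1. In Schwann cells of E10-P56 every member but *Nov* was at least 2-fold lower, where 15.2% of genes were and 19.9% were higher, and *Nov* stood at a ratio of 1.19 (0.95 to 1.47). In endoneurial cells 0 of 5 members in E10-P56 cells and 0 of 4 in adult pulse cells were past 2-fold in either direction, where 2.27% and 2.36% of genes were. *Nov* there had a ratio of 1.58 (1.38 to 1.80) in E10-P56 cells and 0.998 (0.90 to 1.10) in adult pulse cells. The *Wisp1* ratios of E10-P56 depended on the activated fibroblasts described next, without which the fibroblast level was 3.5 CPM. The ratio was then 0.84 in pericytes, 1.49 in intermediate mural cells, 1.78 in perineurial cells and 1.55 in Schwann cells, from 6, 9, 5 and 3 UMIs in these classes, and the interval of each class level held 3.5 CPM. In endoneurial cells, with 10 UMIs, it went from 0.51 to 2.51. Fibroblasts without the activated cells had an interval of 2.9 to 4.1 CPM. VSMCs of E10-P56, at 19.7 CPM (13.3 to 28.2), and tenocytes, at 164 CPM (142 to 188), stood clear above it.

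Tenocytes differed among themselves along *Col22a1*, a collagen of the myotendinous junction. The 74 E10-P56 and 292 adult pulse tenocytes with a *Col22a1* UMI had more *Ctgf*, at 1216 CPM (1114 to 1325) and 1664 CPM (1612 to 1718), than those without, at 639 CPM (584 to 698) and 898 CPM (851 to 948). *Wisp1* followed, with 248 CPM (203 to 300.4) and 238 CPM (219 to 259) against 117 CPM (94.0 to 144) and 87.7 CPM (73.2 to 104.2). The *Wisp1* ratio was 2.13 (1.59 to 2.85) in E10-P56 cells and 2.72 (2.24 to 3.32) in adult pulse cells, where 4.3% and 4.86% of genes were at least 2-fold higher, while *Ctgf* had a ratio of 1.85 (1.74 to 1.97) in the adult pulse. *Cyr61* had a ratio of 1.27 (1.16 to 1.40) in E10-P56 cells and 1.02 (0.96 to 1.08) in adult pulse cells. *Nov* and *Wisp2* were on the other side. *Nov* had 18.7 CPM (8.1 to 36.9) and 1.7 CPM (0.5 to 4.4) with *Col22a1* but 157 CPM (130.3 to 188) and 111 CPM (94.4 to 129) without it, and *Wisp2* had 7.0 CPM (1.4 to 20.5) and 0.9 CPM (0.1 to 3.1) against 36.3 CPM (24.2 to 52.5) and 79.5 CPM (65.8 to 95.3). These ratios were 0.12 and 0.02 for *Nov* and 0.19 and 0.01 for *Wisp2*, where 6.68% and 5.13% of genes were at least 2-fold lower. *Nov* in the adult pulse and *Wisp2* in both libraries passed the filter only through the tenocytes without *Col22a1*. These had to be lower in tenocytes with it. The 8 fibroblast markers, all with a UMI, moved in the same direction: their summed level was 4692 CPM and 7156 CPM in tenocytes without a *Col22a1* UMI and 2101 CPM and 2428 CPM in those with one, and the part of fibroblast RNA in the *Nov* and *Wisp2* levels was not tested. Depth also differed, with medians of 5347 and 7250 UMIs with *Col22a1* and 4158 and 5615 UMIs without.

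Fibroblasts were divided by markers into a *Pi16* type, a *Col15a1* type, a *Comp* type, activated cells with at least 3 of *Tnc*, *Lrrc15*, *Cthrc1* and *Postn*, and cells between. *Nov* was high in the *Pi16* type, at 194 CPM (187 to 201) in E10-P56 cells and 245 CPM (239 to 252) in adult pulse cells, and in the *Comp* type, at 235 CPM (214 to 257) and 244 CPM (226 to 263). In the *Col15a1* type it was 59.0 CPM (54.2 to 64.0) and 88.9 CPM (84.6 to 93.4). The ratio of *Pi16* to *Col15a1* type was 3.29 (3.01 to 3.597) in E10-P56 cells and 2.76 (2.61 to 2.92) in adult pulse cells, where 4.1% and 4.89% of genes were at least 2-fold higher. *Pi16*-type cells, 37.2% and 35.0% of the fibroblasts, held 51.8% and 50.4% of the fibroblast *Nov* UMIs.

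*Ctgf* was lowest in the *Pi16* type, at 60.7 CPM (56.9 to 64.6) and 51.9 CPM (48.8 to 55.1). In the *Comp* type it was 226 CPM (206 to 248) and 254 CPM (235 to 273), a ratio to the *Pi16* type of 3.73 (3.33 to 4.18) and 4.88 (4.43 to 5.38), where 4.88% and 5.61% of genes were at least 2-fold higher. The *Col15a1* type had 87.1 CPM (81.4 to 93.2) in E10-P56 but 203 CPM (197 to 210) in the adult pulse, so that the ratio of *Pi16* to *Col15a1* type was 0.70 (0.63 to 0.76) and 0.26 (0.24 to 0.27), and the ratio of *Comp* to *Col15a1* type 2.60 (2.31 to 2.92) and 1.25 (1.15 to 1.35). *Comp*-type cells had more tenocyte marker RNA than *Pi16*-type cells, 209 CPM against 49.1 CPM in E10-P56 cells and 644 CPM against 73.2 CPM in adult pulse cells, and its part in the *Ctgf* level was not tested. *Wisp2* in the adult pulse was 6.51-fold (5.27 to 8.03) higher in the *Comp* than in the *Pi16* type, and 1.17-fold (1.01 to 1.36) in E10-P56. *Cyr61* varied less, between 262 and 554 CPM over the 5 subsets of E10-P56 and between 198 and 413 CPM in the adult pulse. The *Comp* type of the adult pulse had 0.48 times (0.44 to 0.53) the *Cyr61* level of the *Col15a1* type, where 1.43% of genes were at least 2-fold lower, and in E10-P56, where 1.61% were, the ratio was 1.12 (1.03 to 1.21). *Nov* was 3.99-fold (3.52 to 4.51) and 2.74-fold (2.50 to 3.002) higher in the *Comp* than in the *Col15a1* type, where 1.55% and 1.79% of genes were at least 2-fold higher.

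In E10-P56, *Wisp1* in fibroblasts lay mostly in activated cells. The 222 activated cells of E10-P56, 5.3% of its fibroblasts, had 122 CPM (113 to 132) and held 82.1% of the fibroblast *Wisp1* UMIs, 636 of 775. The other fibroblast subsets of E10-P56 had between 1.8 and 10.2 CPM. Against the *Col15a1* type, at 4.3 CPM, the ratio was 28.5 (20.8 to 39.9), where 4.23% of genes were at least 2-fold higher. *Wisp1* passed the filter of 10 CPM on average through the activated cells alone, so it had to be higher in them. *Ctgf*, at 307 CPM (292 to 323), and *Wisp2*, at 193 CPM (181 to 205), were also past 2-fold in these cells, by 3.53-fold (3.24 to 3.84) and 2.35-fold (2.14 to 2.58), and *Cyr61* was 1.66-fold higher (1.58 to 1.74). The activated cells were deep, with a median of 20562 UMIs against 7372 UMIs for the *Col15a1* type, and the part of depth in the choice of these cells was not tested. The adult pulse had 13 such cells, too few to compare, with 79.4 CPM (51.4 to 117) of *Wisp1* and 20.2% of the fibroblast *Wisp1* UMIs, beside 33.1% in the *Col15a1* type. In those 13 cells the tenocyte markers summed to 2553 CPM, against 301 CPM in the activated cells of E10-P56.

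**Figure D2:**
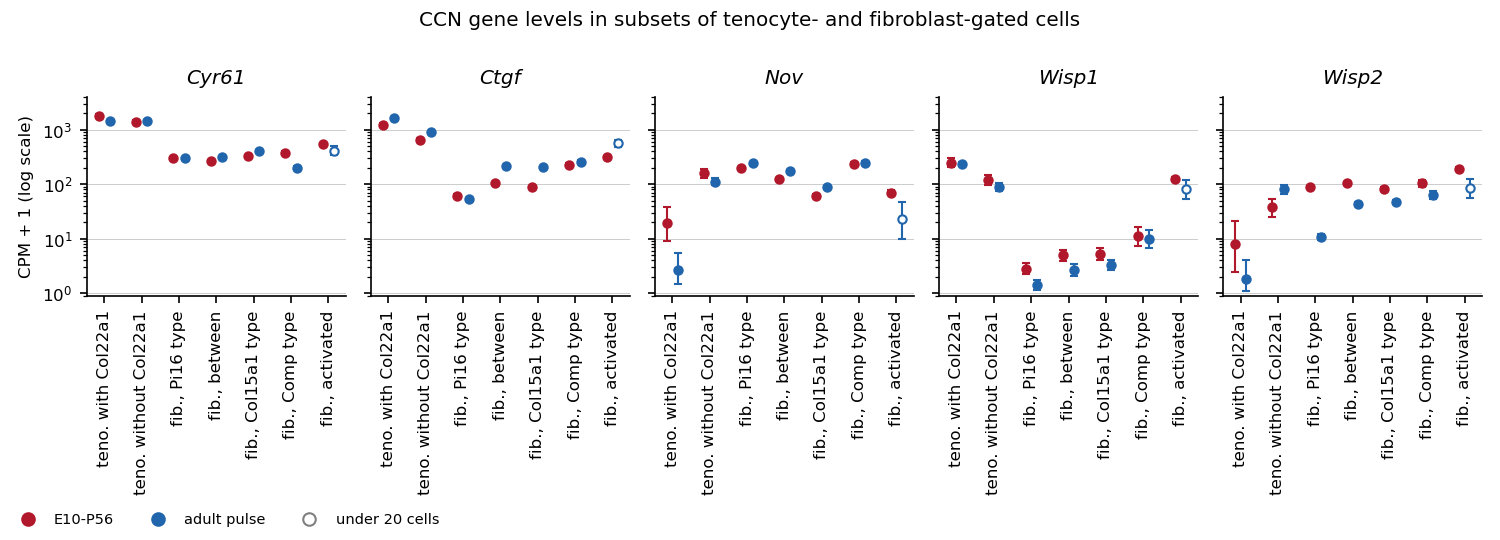
Level of each CCN gene in subsets of tenocyte-gated (teno.) and fibroblast-gated (fib.) cells, as CPM + 1 on a log scale, in the E10-P56 library (red) and the adult pulse library (blue), with exact 95% Poisson intervals. Open points are the 13 activated cells of the adult pulse. *Nov* and *Wisp2* fall from tenocytes without to tenocytes with *Col22a1*, *Wisp1* peaks in tenocytes and activated fibroblasts, and *Wisp2* of *Pi16*-type cells is at 87.8 CPM in E10-P56 cells and 9.6 CPM in adult pulse cells.

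Between the libraries, 20 of 30 member values in 6 classes passed the filter, and 3 of the 20 were past 2-fold, all higher in E10-P56. No member that passed was past 2-fold in pericytes, intermediate mural cells or perineurial cells, where 5.89%, 14.7% and 18.1% of genes were. *Wisp2* in fibroblasts was 3.13-fold higher (2.96 to 3.30) in E10-P56, where 4.85% of genes were past 2-fold in either direction. *Wisp2* in endoneurial cells was 4.32-fold higher (3.22 to 5.84), where 10.2% of genes were. *Nov* in tenocytes was 2.45-fold higher (1.93 to 3.10), where 11.9% of genes were. With cells named from clusters this ratio was 1.30, and in tenocytes without a *Col22a1* UMI it was 1.42 (1.11 to 1.81). *Wisp1* in fibroblasts did not pass the filter. Its ratio was 7.86 (6.49 to 9.57), and without the activated cells the levels were 3.5 CPM in E10-P56 cells and 1.8 CPM in adult pulse cells.

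The *Wisp2* difference was uneven over the fibroblast subsets. In *Pi16*-type cells its level was 87.8 CPM (83.2 to 92.5) in E10-P56 cells and 9.6 CPM (8.3 to 11.0) in adult pulse cells, a ratio of 9.14 (7.87 to 10.7), where 5.01% of genes were past 2-fold. The ratio was 2.42 (2.20 to 2.66) in the cells between, where 4.69% were, 1.77 (1.60 to 1.95) in the *Col15a1* type and 1.65 (1.34 to 2.03) in the *Comp* type, where 5.76% were. In tenocytes with *Col22a1*, where 19.7% of genes were past 2-fold, no member that passed was. Within a library, the ratio of *Pi16* to *Col15a1* type was 1.07 (0.98 to 1.17) in E10-P56 cells and 0.21 (0.18 to 0.24) in adult pulse cells, where 4.67% and 5.42% of genes were at least 2-fold lower. In tenocytes without *Col22a1* *Wisp2* ran the other way, with a ratio of 0.46 (0.29 to 0.70), where 15.3% of genes were past 2-fold. Without the activated cells the fibroblast ratio was 2.80, and without the cells highest in immediate-early genes it was 3.98.

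*Cyr61* had a ratio between libraries of 0.99 (0.96 to 1.01) in fibroblasts and 0.98 (0.68 to 1.45) in perineurial cells. It was 1.35-fold higher (1.15 to 1.58) in pericytes of E10-P56 and lower in intermediate mural cells, with a ratio of 0.69 (0.61 to 0.78). *Ctgf* ran lower in E10-P56 in tenocytes (0.62, 0.58 to 0.66), endoneurial cells (0.53, 0.41 to 0.68) and fibroblasts (0.73, 0.70 to 0.75). In perineurial cells the ratio was 0.60 (0.37 to 0.998), but 1 adult pulse cell gave 14 of 24 UMIs. With the top cell of each library left out, the perineurial levels were 61.4 CPM in E10-P56 and 55.8 CPM in the adult pulse, so no direction is given. In intermediate mural cells *Ctgf* was 1.97-fold higher in E10-P56 (1.56 to 2.52), where 1 cell gave 190 of the 652 UMIs, and pericytes had a ratio of 0.82 (0.64 to 1.06). In *Pi16*-type fibroblasts the *Ctgf* ratio was 1.17 (1.07 to 1.28) and in the *Col15a1* type 0.43 (0.40 to 0.46), where 4.8% of genes were past 2-fold. In the cells between, its ratio was 0.48 (0.45 to 0.52). *Wisp1* in tenocytes had a ratio of 0.91 (0.77 to 1.07).

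**Figure D3:**
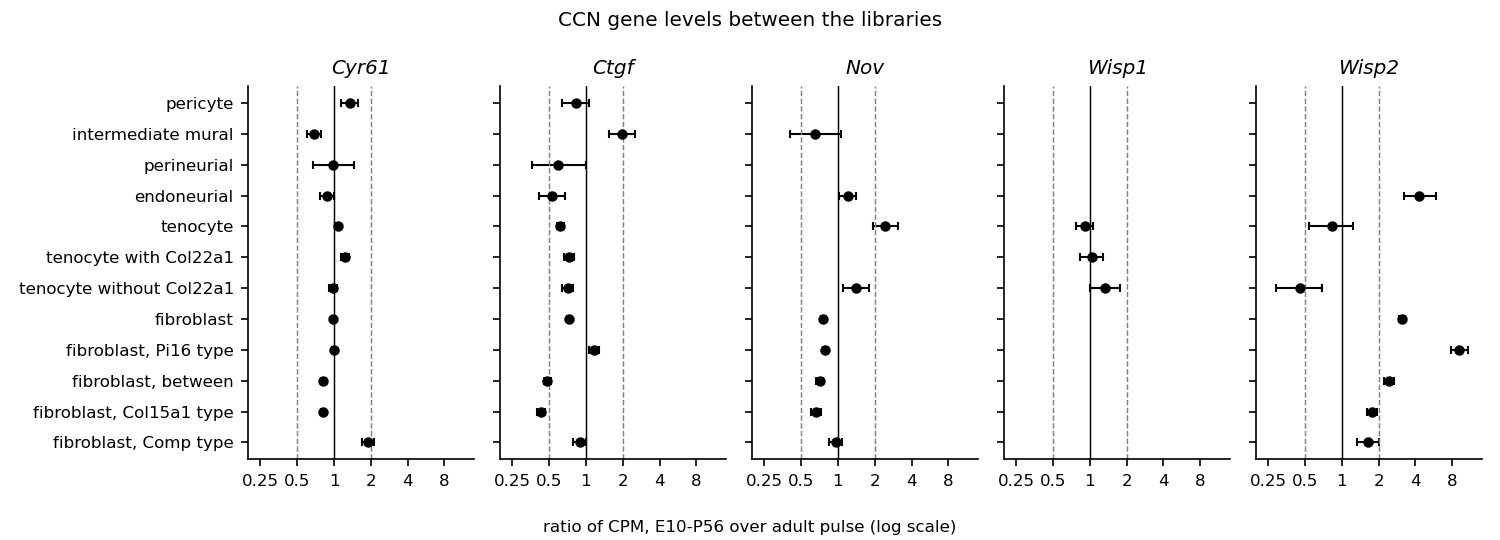
Ratio of the CPM level in E10-P56 to that in the adult pulse (log axis) for each CCN gene, in classes and in subsets of tenocytes and fibroblasts. Bars are exact 95% binomial intervals for counting error, dashed lines mark 2-fold, and values under the filter of 10 CPM on average or 20 UMIs are not drawn. *Wisp2* in *Pi16*-type fibroblasts stands farthest out at 9.14, and the *Cyr61* values lie between 0.69 and 1.89.

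Tissue digestion induces immediate-early genes, and *Cyr61* is itself such a gene, so member levels were set beside a list of 22 immediate-early and dissociation genes that holds none of the 5. Summed over the list, the level was higher in the adult pulse than in E10-P56 in fibroblasts (15404 against 11638 CPM), tenocytes (17740 against 12519 CPM) and intermediate mural cells (16326 against 8590 CPM), and its part in the differences between libraries was not tested. Within fibroblasts ordered by the share of these genes and divided into 4 equal groups, *Cyr61* went from 118 CPM in the lowest to 553 CPM in the highest group in E10-P56 cells and from 66.8 to 698 CPM in adult pulse cells. *Ctgf* did not move the same way in both libraries: it went from 171 to 69.2 CPM in E10-P56 cells and from 133 to 219 CPM in adult pulse cells. The tenocyte level of *Cyr61* stayed above the fibroblast level at both ends, with 873 CPM in the lowest group of E10-P56 tenocytes and 549 CPM in that of the adult pulse. *Nov* in fibroblasts ran the other way, from 152 to 100.2 CPM and from 191 to 113 CPM.

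**Figure D4:**
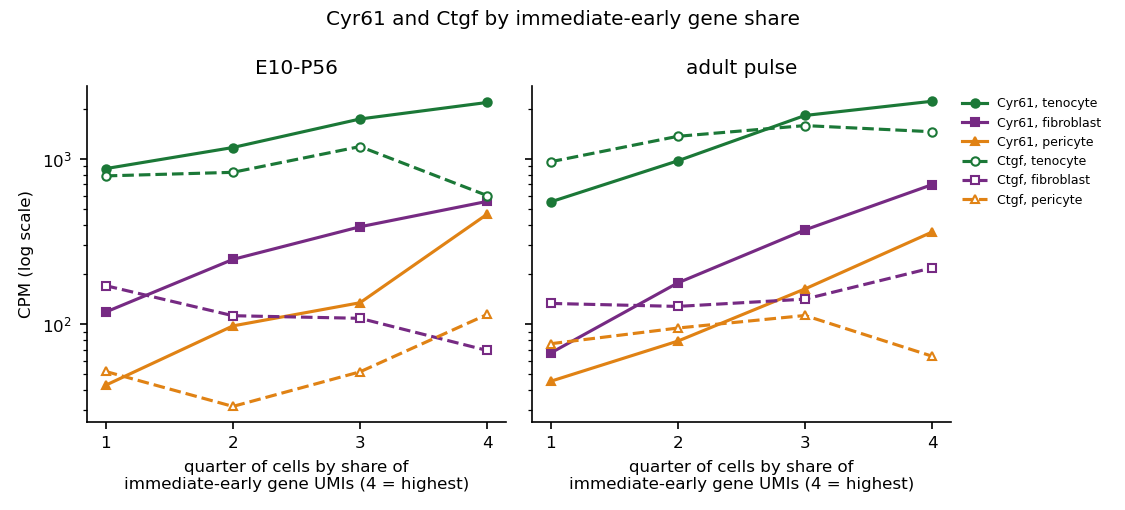
Level of *Cyr61* (solid lines, filled points) and *Ctgf* (dashed lines, open points) as CPM on a log axis in tenocytes, fibroblasts and pericytes divided into 4 equal groups by the share of immediate-early gene UMIs, with group 4 the highest. Each point is the sum over the cells of a group, drawn without an interval. *Cyr61* is higher in group 4 than in group 1 in all 3 classes of both libraries, while *Ctgf* has no common direction.

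The other genes of the pathways were read as lists beside all genes tested, of which 9.9% were at least 2-fold higher and 8.47% lower in tenocytes of E10-P56, and 6.75% higher and 10.1% lower in those of the adult pulse. Of 22 further YAP/TAZ-TEAD targets, 19 were tested in tenocytes of E10-P56 against fibroblasts, 5 were at least 2-fold higher and 1 lower, with a median log2 ratio of 0.71 beside 0.10 for all genes tested. In the adult pulse 16 were tested, 3 were higher and 4 lower, with a median of -0.31 beside -0.07, so the tenocyte level of *Cyr61* and *Ctgf* was not shared by the median of the list in both libraries. The receptor kinase *Axl* had 212 and 221 CPM in tenocytes and 389 and 446 CPM in fibroblasts. *Crim1*, a transmembrane BMP-binding protein, was highest in VSMCs, at 376 CPM in E10-P56, and the guanine nucleotide exchange factor *Arhgef17* in pericytes, at 296 and 286 CPM, where *Cyr61* and *Ctgf* were low. *Igfbp3*, a binding protein for IGFs, had 81.0 and 45.9 CPM in fibroblasts and 38.4 and 31.9 CPM in tenocytes, beside 315 CPM in endothelial cells of the adult pulse. In pericytes 5 of 16 targets were higher and 5 lower in each library, where 16.5% and 17.6% of all genes were higher and 10.7% and 11.8% lower.

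Of the Hippo pathway core, 1 of 14 genes tested was at least 2-fold higher in tenocytes of E10-P56 and 1 of 13 in those of the adult pulse, with 1 lower in each, beside 9.9% and 6.75% of all genes higher, and the medians were 0.36 and -0.05 beside 0.10 and -0.07. *Wwtr1*, which encodes TAZ, had 291 and 247 CPM in tenocytes and 71.9 and 87.6 CPM in fibroblasts. *Tead1*, a TEAD factor, had 129.5 and 80.9 CPM in tenocytes and 135 and 118.5 CPM in pericytes, and *Vgll4*, which competes for TEAD factors, had 57.6 and 51.1 CPM in tenocytes. Among classes of at least 20 cells, *Tead1* and *Vgll4* were highest in Schwann cells of E10-P56, at 254 and 128 CPM. *Lats2*, a kinase that restrains YAP and TAZ, had 105.1 CPM in pericytes of E10-P56 and 43.1 CPM in its fibroblasts. Among TGF-beta targets, 6 of 10 were at least 2-fold higher in tenocytes of E10-P56 and 7 of 10 in the adult pulse, with 1 and 0 lower, where 9.9% and 6.75% of all genes were higher. The medians were 1.45 and 1.19 on the log2 scale, beside 0.10 and -0.07 for all genes. *Col1a1*, the chain of type I collagen, had 18705 and 18317 CPM in tenocytes and 11755 and 5248 CPM in fibroblasts, and *Pmepa1*, an inhibitor of TGF-beta signalling, had 594 and 499 CPM against 333 and 376 CPM. *Tagln*, a gene of smooth muscle that also served as a VSMC marker, had 13750 CPM in VSMCs of E10-P56, and *Id1*, an inhibitor of DNA binding, 738 CPM in endothelial cells of the adult pulse.

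Canonical Wnt targets were scarce: of 12, 4 passed the filter in tenocytes of E10-P56 against fibroblasts, 3 higher and 1 lower, and 2 in the adult pulse, 1 higher, too few to set beside the 9.9% and 6.75% of all genes. *Nkd1*, a Wnt feedback inhibitor, was highest in VSMCs, at 292 CPM in E10-P56, and had 25.1 and 11.6 CPM in tenocytes. *Ccnd1*, cyclin D1, had 164 CPM in intermediate mural cells of E10-P56, and *Bambi* and *Znrf3* reached at most 80.5 CPM in any class of at least 20 cells. Of the CCN receptors and binding partners, 0 of 12 were at least 2-fold higher in tenocytes of E10-P56 and 1 of 12 in the adult pulse, with 1 and 2 lower, where 8.47% and 10.1% of all genes were lower, and medians of -0.12 and -0.51 beside 0.10 and -0.07. *Itgb1*, the shared integrin beta chain, had 1373 and 1416 CPM in pericytes and 1409 CPM in VSMCs of E10-P56, against 690.0 and 591 CPM in tenocytes and 363 and 366 CPM in fibroblasts. *Fn1*, fibronectin, had 1507 and 1968 CPM in tenocytes against 1718 and 1441 CPM in fibroblasts. *Dcn*, decorin, had 7335 and 12865 CPM against 10820 and 18528 CPM, and *Bgn*, biglycan, 1375 and 1588 CPM against 863 and 651 CPM. In pericytes 6 of 13 of this list were at least 2-fold lower in each library, where 10.7% and 11.8% of all genes were, *Dcn* among them at 456 and 516 CPM.

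Patterns were compared as Pearson r of log2(CPM + 5) over 15 points, each a class of at least 20 cells in 1 library, which share libraries and depth. *Cyr61* and *Ctgf* had r = 0.86, and each was the third of 12087 genes by likeness to the other. *Ctgf* and *Wisp1* had r = 0.76, *Cyr61* and *Wisp1* 0.70, *Nov* and *Wisp2* 0.66, and *Cyr61* and *Nov* 0.22. The genes most like *Cyr61* were *C1qtnf3* (0.89), *Gprin3* (0.88), *Ctgf*, *Emilin1* (0.85) and *Setbp1* (0.84), and those most like *Ctgf* were *Ccdc102a* (0.86), *Msi1* (0.86), *Cyr61*, *Gprin3* (0.86) and *C1qtnf3* (0.85). *Nov* was nearest to *Maf* (0.90), *Gm15417* (0.88), *Sod3* (0.87), *AI464131* (0.87) and *Vgll3* (0.86). *Wisp1* was nearest to *Raver2* (0.95), *Kctd1* (0.94), *Slco5a1* (0.94), *Pappa2* (0.91) and *Lpar3* (0.91). Among the genes nearest to *Wisp2* were *Ccdc81* (0.95), *Fgf18* (0.94), *Hpgd* (0.92) and *Sfrp2* (0.92).

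Within single tenocytes thinned to 1500 UMIs, a *Ctgf* UMI was found in 56.2% of the cells that had a *Cyr61* UMI and in 30.4% of those without in E10-P56, and in 63.5% and 37.1% in the adult pulse. *Wisp1* did not track *Cyr61* in this way, with 21.2% and 20.7% in E10-P56 cells and 19.9% in either kind of cell in adult pulse cells. In fibroblasts *Wisp2* was found in 4.5% of cells with a *Nov* UMI and in 9.5% of those without in E10-P56, and in 2.4% and 4.1% in the adult pulse. None of the 20 adult pulse tenocytes with a *Nov* UMI had a *Wisp1* UMI, against 20.7% of the rest. Of these 20 cells, 19 were tenocytes without *Col22a1*, where the thinned *Wisp1* share was 10.8%, against 27.4% with *Col22a1*. The pair was not compared within these subsets.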

How the data were processed

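The authors sorted tdTomato+ cells 2 times in series, made 10x 3' libraries (v3 per the methods, v2 or v3 per the labels), aligned the reads to a modified mm10 genome and deposited UMI counts per gene and cell from Cell Ranger (per the file headers 5.0.0 for the embryonic and 3.0.2 for the adult label). E10-P56 held 8236 barcodes with 67460919 UMIs and the adult pulse 9195 barcodes with 69153173 UMIs. Cells of at least 1500 UMIs (the minimum in the methods) and at most 10% mitochondrial UMIs (chosen here) were kept, and 1310 and 465 barcodes fell under the first limit and 839 and 163 over the second.

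A cell took a class when it had UMIs of at least 4 of 8 markers with a lead of 2 over other classes, or at least 5 of 8 fibroblast markers, and otherwise stayed unplaced or mixed. Mural cells were divided by the difference of pericyte and VSMC scores at 1 and -1. Cells with at least 4 cycling markers were set aside. No doublet caller was applied apart from an alternative with Scrublet scores. The limits were set after the marker distributions were seen, and the members and lists were chosen with earlier results of these data known.

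Levels were UMIs summed over a class as CPM with exact Poisson intervals, shares were taken after thinning to 1500 UMIs with Clopper-Pearson intervals, and ratios had exact conditional binomial intervals. All cover counting error only. Background shares used genes with a mean of at least 10 CPM and 20 UMIs in all. Of each list the 4 genes with the largest level were named, and for each member the 5 genes with the highest r among genes with at least 200 UMIs outside the marker lists. Clusters for an alternative were made with the Leiden method (2000 variable genes, 30 components, 15 neighbours, resolution 1.5). Python 3.11.15, numpy 2.4.6, scipy 1.17.1, pandas 2.3.3, scanpy 1.11.5 and igraph 0.11.9 were used, and the scripts were tested on simulated data. A result that the naming rule would give is not reported here.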

Additional observations from a re-analysis of the deposited data

Results flagged for a closer look

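*Cyr61* in *Comp*-type fibroblasts went opposite ways in the 2 libraries. Its ratio to the *Pi16* type was 1.25 in E10-P56 cells and 0.663 in adult pulse cells, and its ratio to the *Col15a1* type was 1.12 and 0.483. With 1 library of each kind the difference was not tested.

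*Wisp3*, the remaining family member with a row in both matrices, had 10 UMIs in 9 cells of E10-P56 and 5 UMIs in 5 cells of the adult pulse.

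Cycling cells were outside the comparisons. Their *Wisp1* level was 161.9 CPM (149.0 to 175.6) in 95 cells of E10-P56 and 71.9 CPM (47.8 to 104.0) in 22 cells of the adult pulse.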

How the results depend on the processing

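The highest class of a member was the same for all 10 member and library pairs, or for 8 or 9 of them, under every alternative but the stricter gate, where it was so for 6. There *Nov* and *Wisp2* moved among endoneurial cells, Schwann cells and fibroblasts. Of the member and class pairs that passed the filter, 3 of 20 were past 2-fold between libraries. The counts were 5 of 24 with no mitochondrial limit, 6 of 21 without the 25% of cells highest in immediate-early genes and 6 of 24 with cells named from clusters. With no mitochondrial limit, VSMCs of the adult pulse rose from 18 to 28 cells and entered the comparison. All 30 ratios shared with the main setting then stayed inside their main intervals. With clusters, VSMCs and Schwann cells entered, at 28 and 21 adult pulse cells, and the endoneurial class was empty. The part of these changes in the counts was not tested. Without the activated fibroblasts, an alternative added after the data were seen, 3 ratios to fibroblasts of E10-P56 that had been past 2-fold turned, all for *Wisp1*: 1.49 in intermediate mural cells, 1.78 in perineurial cells and 1.55 in Schwann cells, on 9, 5 and 3 UMIs. The *Wisp1* ratio of endoneurial cells, not past 2-fold before, also turned, to 2.51. These follow from the *Wisp1* UMIs taken out of the fibroblast sum. Over all alternatives 327 of 341 recomputed class ratios and 30 of 31 library ratios that were past 2-fold remained so. At a pseudocount of 1 CPM, 19 of the 25 genes most alike in pattern were shared. No paired analysis was possible because each group is 1 library, and for the same reason no replicate could be left out. Classes of few cells limit precision, above all the 18 VSMCs and 12 Schwann cells of the adult pulse.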

Other observations

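Cycling cells, set aside by 8 proliferation markers, carried activated fibroblast markers at 3722 CPM in E10-P56 cells and 1855 CPM in adult pulse cells. *Wisp2* in them was 244 CPM (228 to 261) in E10-P56, while the 22 cells of the adult pulse had no UMI, which allows up to 9.48 CPM. The adult pulse cycling cells also held tenocyte markers at 4524 CPM, against 217 CPM in those of E10-P56.

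Cells that no class took were high in *Cyr61*, with 551 CPM (501 to 604.5) in 178 cells of E10-P56 and 920 CPM (842 to 1002) in 144 cells of the adult pulse. *Ctgf* in them was 507 CPM (459 to 559) and 151 CPM (120.3 to 186).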
